A study of Homo sapiens with 6 samples.

Results

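The 10 genes described here encode receptors, transducers and transcription factors of the Hedgehog pathway: SMO, PTCH1, BOC, CDON, GAS1, SUFU, KIF7, GLI1, GLI2 and GLI3. They were chosen by function and found by symbol, all 10 among 20979 symbols, and each was listed in every library. In this pathway a secreted Hedgehog ligand binds PTCH1, which otherwise holds the membrane protein SMO inactive. Active SMO gathers in the primary cilium and releases the GLI transcription factors from SUFU and from processing into repressors. GLI1 and PTCH1 are themselves classical GLI target genes and serve as common readouts of an active pathway, and in glioblastoma the pathway has been studied in stem-like tumour cells.

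The libraries came from A172, an established human glioblastoma cell line. Lipofectamine carried in either a control miRNA (the controls), a duplex named for miR-324-5p (5p duplex) or one named for miR-324-3p.1 (3p.1 duplex), and RNA was taken 1 day later, with 2 libraries in each of the 3 groups. All 3 groups thus received the lipid reagent and a small RNA, and untransfected cells are not analysed here. Values are TPM, a level scaled by transcript length and library size, so sequencing depth is unknown and no counting interval is given. Whether replicates were separate cultures is not in the labels, and p-values then reflect only how these samples spread. In bulk RNA, fewer cells expressing a gene and less of its RNA per cell cannot be told apart.

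Of 10 glioblastoma and mesenchymal markers 7 had a mean of at least 1 TPM. VIM (4787.63 to 5909.93 TPM), CD44 (708.19 to 928.83 TPM), NES and SOX9 were high, and CHI3L1 (1.91 to 2.91 TPM), SOX2 and OLIG2 stayed under 5 TPM. TNC stood at 0.46 TPM or less, GFAP at 0.25 TPM or less and S100B at 0. Of the other cell types, 7 of 8 blood and endothelial markers had a mean under 1 TPM, and the list summed to between 6.32 and 8.36 TPM. The exception, PTPRC, stood at 5.52 to 7.48 TPM and made up most of that sum. The 8 neuronal markers summed to between 23.13 and 26.8 TPM, nearly all from SYT1 (10.12 to 12.06 TPM) and GAD1 (10.18 to 13.61 TPM), with DCX at 0 and SNAP25 at 0.02 TPM or less. The 8 epithelial markers summed to between 930.32 and 1359.43 TPM, nearly all from KRT8 and KRT18, and 5 had a mean of at least 1 TPM. CLDN4 stood at 10.88 to 27.38 TPM, KRT19 at 2.12 to 4.23 TPM and EPCAM at 1.23 to 3.01 TPM. CDH1, CLDN3 and CLDN7 stood at 0.17 TPM or less. Interferon-stimulated genes set the controls apart: the median of a list of 30 was 37.9 and 98.3 TPM in control replicates 1 and 2 and between 6.66 and 9.67 TPM in the 4 duplex libraries. Every control-to-duplex difference below therefore moves with that interferon difference, whose part was not tested.

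miR-324-5p has been reported to target SMO and GLI1 in cerebellar granule cell progenitors, so these genes carry the question of whether the 5p duplex lowered Hedgehog transcripts here. The mature arms of MIR324 (chromosome 17, minus strand, GRCh38.p14) are shown from RefSeq, with the seed, bases 2 to 8, in capitals. The sequence of the 3p.1 duplex is not in the labels, and it may start at another base than the RefSeq 3p arm.
hsa-miR-324-5p: cGCAUCCCcuagggcauuggug
hsa-miR-324-3p: cCCACUGCcccaggugcugcugg

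The seed of miR-324-5p pairs with GGGATGC in a transcript. A match to bases 2 to 8 followed by A is an 8mer, one without that A a 7mer-m8, one to bases 2 to 7 followed by A a 7mer-A1, and one to bases 2 to 7 alone a 6mer. In the longest 3′UTR that GENCODE 29 (GRCh38) gives each gene, 3 of the 10 Hedgehog genes held a 7mer or 8mer, GLI3, SUFU and CDON, against 14.6% of 11744 expressed genes. GLI3 was the 1 gene of the 10 with an 8mer, which 2.81% of expressed genes had. The 7mer and 8mer matches are printed below in the transcript's sense, site in capitals, as places where the RefSeq 5p arm could pair. The 6mers are not printed. A match is a description and not a measured site.
GLI3 8mer, chr7:41962079-41962086, minus strand, 3′UTR base 2244 of 3380: tccttcctggaGGGATGCAcagtgatccgg
GLI3 7mer-A1, chr7:41962140-41962146, minus strand, 3′UTR base 2184: gtagtattctcGGATGCAacctccatttc
SUFU 7mer-A1, chr10:102630559-102630565, plus strand, 3′UTR base 404 of 3380: gcagagcgagtGGATGCActtcccagctc
SUFU 7mer-m8, chr10:102631632-102631638, plus strand, 3′UTR base 1477: aggcaccagcaGGGATGCcacaggagtgc
CDON 7mer-m8, chr11:125959080-125959086, minus strand, 3′UTR base 1856 of 5146: gtcggatattaGGGATGCtgtagacccaa

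SMO and GLI1, the reported targets, held no match in the 3′UTR, not even a 6mer, in windows of 1094 and 201 nt. Each held 1 match longer than a 6mer in its coding sequence, as did GLI3 and KIF7, and PTCH1 held 2. Coding 6mers were not counted. The share of expressed genes with such a coding match was not computed, so these counts have no background to be read against. The coding matches of the reported targets are shown for comparison with the 3′UTR matches above.
SMO 7mer-A1, coding, chr7:129212430-129212436, plus strand: acagaactcatGGATGCAgactcggactt
GLI1 7mer-m8, coding, chr12:57465800-57465806, plus strand: atcccctgttgGGGATGCtggatgggcgg

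**Figure D1:**
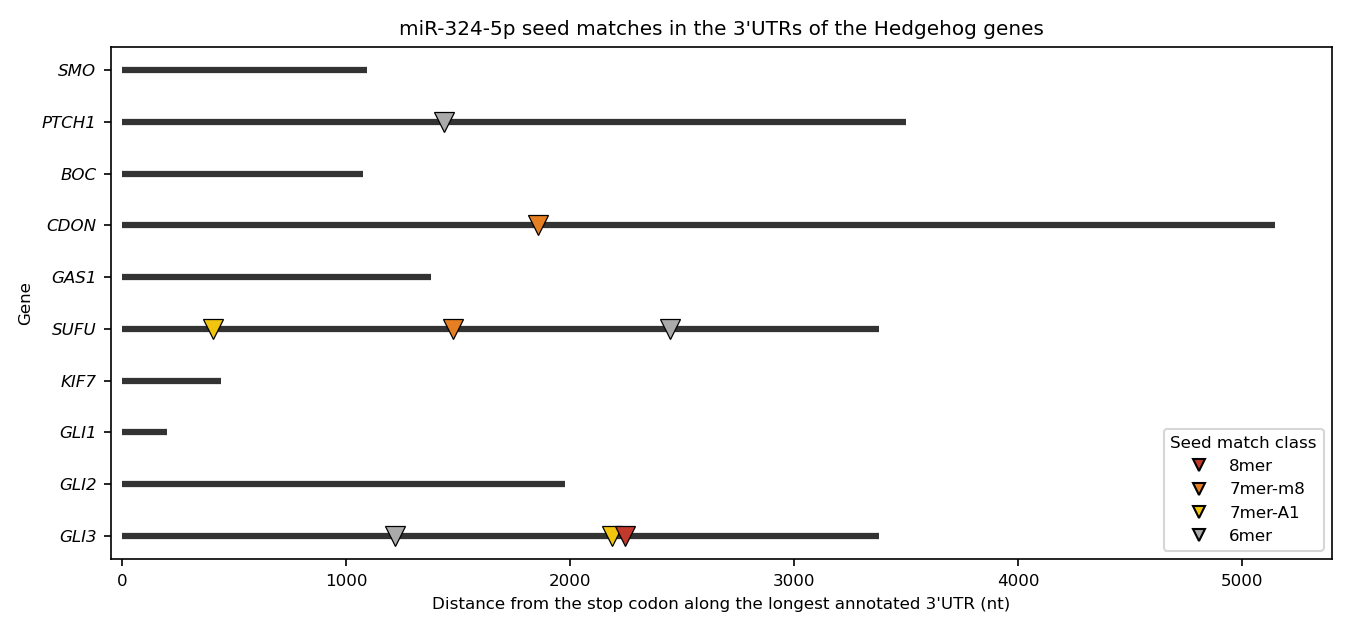
Longest annotated 3′UTR of each Hedgehog gene (horizontal axis, distance from the stop codon in nt), with triangles at matches to the miR-324-5p seed coloured by class. GLI3 holds the 8mer, beside a 7mer-A1 and a 6mer, SUFU holds 3 matches and CDON 1, PTCH1 holds a 6mer, and the other 6 genes hold none.

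For the 3p arm, 3 possible starts were searched, since the start of the duplex strand is not given. With the RefSeq start (site GCAGTGG) GLI3, SUFU and CDON held a 7mer or 8mer, against 32.1% of expressed genes, CDON with an 8mer. With a start 1 base later (GGCAGTG) SMO and SUFU did, against 30.9%, and with a start 3 bases later (GGGGCAG) SMO, GLI2, PTCH1, SUFU, CDON and KIF7 did, against 28.1%, KIF7 with an 8mer. SUFU was the 1 gene with a 7mer or better under each of the 3 starts. These matches are those of the longest 3′UTR. With the RefSeq start BOC held none there, but held a 7mer-m8 in another annotated 3′UTR.

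In level, the transducer SMO and the inhibitor SUFU stood highest, and the readouts PTCH1 and GLI1 were among the 5 lowest. SMO averaged 18.045 TPM over the 6 libraries and SUFU 10.4 TPM, and neither range touched the next gene's. GLI2 (6.33 TPM), GLI3 (5.85 TPM) and BOC (4.95 TPM) followed with overlapping ranges. CDON (2.02 TPM), PTCH1 (1.49 TPM), KIF7 (1.42 TPM), GAS1 (0.975 TPM) and GLI1 (0.942 TPM) came last, each overlapping its neighbour. Genes averaging 1 TPM or more were tested, 13400 in all; of these 46.5% had a lower mean than SMO, 23.3% a lower mean than GLI3 and 4.77% a lower mean than PTCH1. GLI1 and GAS1 missed that minimum, so 8 of the 10 were tested.

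The comparison was made on log2(TPM + 1), a scale that shrinks the changes of low genes, in 1 limma model over the 6 libraries with Benjamini-Hochberg adjustment over all genes tested and a threshold of 0.05. After the 5p duplex 0 of the 8 passed, against 0.463% of all genes (0.425% lower and 0.0373% higher). At an unadjusted p under 0.05 there were 2, GLI3 and BOC, both lower, against 9.16% of all genes, 7.3% lower. After the 3p.1 duplex 0 of 8 passed, against 0.0149% of all genes (0.00746% lower and 0.00746% higher), and 1, GLI3, was lower at an unadjusted p under 0.05, against 6.86% of all genes, 5.62% lower. Between the duplexes 0 of 8 passed, against 0.433% (0.351% lower and 0.0821% higher after the 5p than after the 3p.1 duplex), and 0 had an unadjusted p under 0.05, against 9.34%, 4.96% lower. No other tool was run on these values, since TPM is not a count unit.

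**Figure D2:**
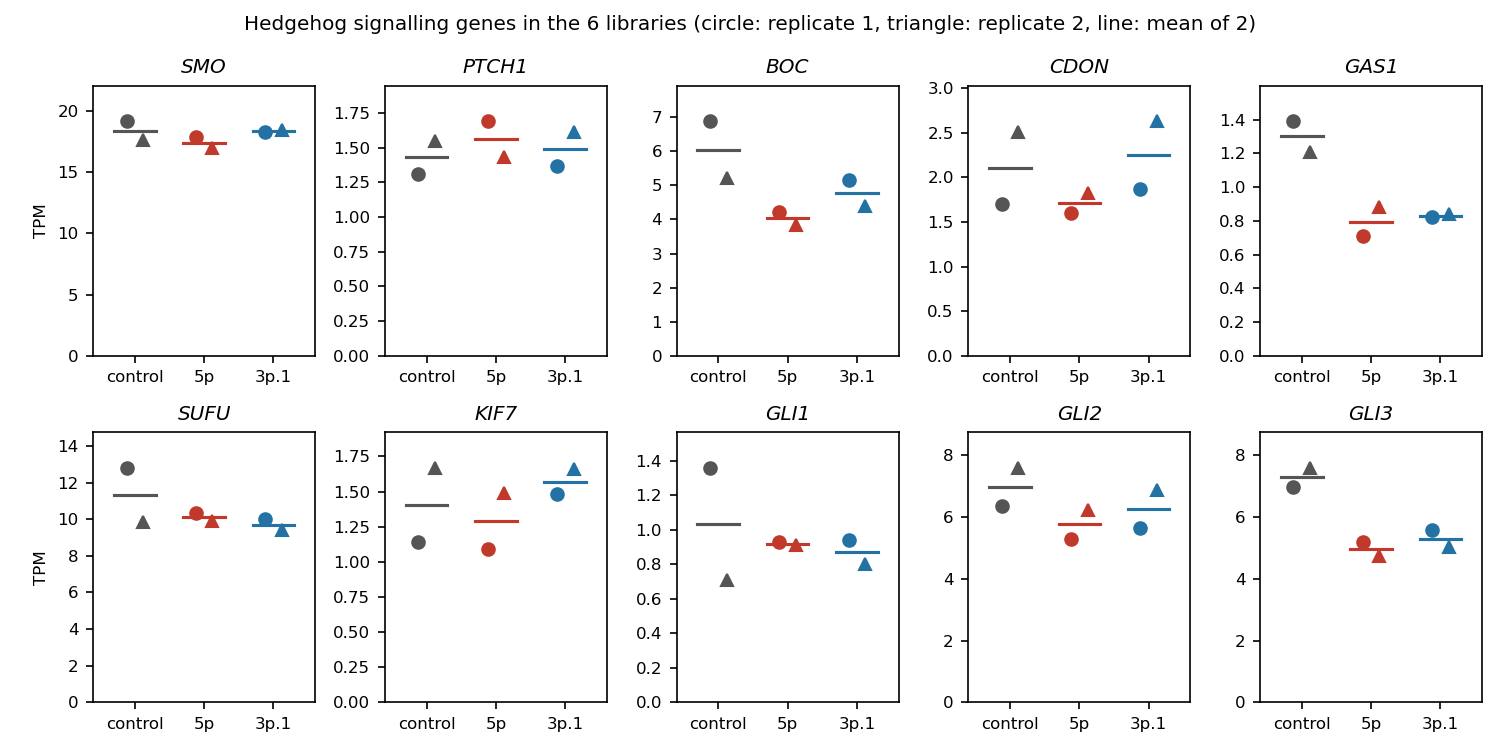
TPM (vertical axes, from 0, scaled per gene) of the 10 Hedgehog genes in control, 5p duplex and 3p.1 duplex libraries. Circles are replicate 1, triangles replicate 2 and lines the mean of 2. GLI3, BOC and GAS1 stood lower in all 4 duplex libraries than in both controls, while SMO stayed between 16.96 and 19.15 TPM.

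SMO, the seven-helix membrane protein that carries the signal inward, stood at 19.15 and 17.62 TPM in both controls, 17.86 and 16.96 TPM after the 5p duplex and 18.26 and 18.42 TPM after the 3p.1 duplex. The control range overlapped that of either duplex, and the 5p duplex libraries lay below the 3p.1 duplex libraries. The log2 fold change was -0.07 after the 5p duplex (SE 0.101, limma adjusted p = 0.898) and -0.0022 after the 3p.1 duplex (adjusted p = 0.999). Its 95% interval after the 5p duplex ran from 0.803 to 1.12 times control on the TPM + 1 scale. Leaving out 1 library moved that log2 value between -0.13 and -0.0168. For size alone, VDAC1, known from these libraries to be lowered by the 5p duplex, moved by a log2 of -1.90 (SE 0.0897, adjusted p = 0.00256) after the 5p duplex and 0.0061 after the 3p.1 duplex. The SE of SMO was close to that of VDAC1, whose change was far larger. In log2 the SMO interval ran from -0.32 to 0.17. It holds -0.13, the median after the 5p duplex of expressed genes with an 8mer to miR-324-5p. A change of that size in SMO cannot be told from none here.

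PTCH1, the Hedgehog receptor that restrains SMO, stood at 1.31 and 1.55 TPM in both controls, 1.69 and 1.43 TPM after the 5p duplex and 1.37 and 1.61 TPM after the 3p.1 duplex. All 3 groups overlapped, with log2 fold changes of 0.08 (SE 0.157, adjusted p = 0.938) and 0.04 (adjusted p = 0.989). SMO stood at 10.6 to 14.6 times the TPM of PTCH1 in the 6 libraries. PTCH1 is a GLI target, and the GLI consensus GACCACCCA, sought on both strands in the RefSeq windows of 250 bases before to 50 after a gene's start, occurred in 1 of its 5 windows and in 0.236% of 35116 windows overall. No other Hedgehog gene with a window held it; GLI1 and GLI3 were not in that table. The match lies on the reverse strand at -172 from the start and is shown, in capitals, because it is the 1 match among the members. That start is an alternative one inside the span given for PTCH1 below, not its outermost start.
PTCH1, chr9:95509419-95509448, minus strand, GRCh38.p14: gttgcctaccTGGGTGGTCtctctactttg

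The coreceptors BOC, CDON and GAS1 bind ligand beside PTCH1. BOC, an immunoglobulin-family membrane protein, stood at 6.88 and 5.21 TPM in both controls, 4.23 and 3.83 TPM after the 5p duplex and 5.17 and 4.38 TPM after the 3p.1 duplex. Both duplex groups lay below control without overlap, narrowly so for the 3p.1 duplex (5.17 against 5.21 TPM), and the controls differed more from each other than either duplex pair. The log2 fold change was -0.48 after the 5p duplex (SE 0.164, unadjusted p = 0.0255, limma adjusted p = 0.430) and -0.28 after the 3p.1 duplex (adjusted p = 0.837). Without control replicate 1 the value after the 5p duplex was -0.31 and without control replicate 2 it was -0.65. For the 3p.1 duplex these were -0.11 and -0.45. BOC held no miR-324-5p match of any class in its 3′UTR.

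CDON, a relative of BOC, stood at 1.70 and 2.51 TPM in both controls, 1.60 and 1.82 TPM after the 5p duplex and 1.87 and 2.63 TPM after the 3p.1 duplex. Control overlapped both duplex groups, and the 5p duplex lay just below the 3p.1 duplex. Its log2 fold change was -0.19 after the 5p duplex (adjusted p = 0.863), 0.07 after the 3p.1 duplex (adjusted p = 0.989) and -0.25 between the duplexes (SE 0.199, adjusted p = 0.793), the last between -0.42 and -0.0840 when 1 library was left out. CDON holds a 7mer-m8 to miR-324-5p, at the coordinates printed above, and so does SUFU.

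GAS1, a membrane-anchored coreceptor, stood at 1.39 and 1.21 TPM in both controls, 0.71 and 0.88 TPM after the 5p duplex and 0.82 and 0.84 TPM after the 3p.1 duplex. Both controls lay above all 4 duplex libraries, and the duplex means were 61.2% and 63.8% of the control mean. GAS1 was tested only when the expression minimum was dropped, where its log2 fold changes were -0.36 (SE 0.0936, unadjusted p = 0.0118, limma adjusted p = 0.401) and -0.33 (unadjusted p = 0.0165, adjusted p = 0.626). In that fit of 20979 symbols, 1758 and 1444 had an unadjusted p under 0.05 by limma in these 2 comparisons. The SE of GAS1 there was below those of PTCH1 (0.123) and KIF7 (0.161), which stood higher. No 3′UTR match to miR-324-5p was found in GAS1. The 3 coreceptors together summed to 9.97 and 8.93 TPM in both controls, 6.54 and 6.53 TPM after the 5p duplex and 7.86 and 7.85 TPM after the 3p.1 duplex, and BOC made up 55.8% to 69.0% of that sum.

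SUFU, the main inhibitor that binds GLI proteins in the cytoplasm, stood at 12.81 and 9.83 TPM in both controls, 10.33 and 9.88 TPM after the 5p duplex and 9.99 and 9.39 TPM after the 3p.1 duplex. Control replicate 1 was high and control replicate 2 lay among the duplex libraries. The log2 fold changes were -0.14 after the 5p duplex (SE 0.145, limma adjusted p = 0.860) and -0.19 after the 3p.1 duplex (adjusted p = 0.885). SUFU carries a 7mer-m8 and a 7mer-A1 to miR-324-5p. The 720 expressed genes whose best match was a 7mer-m8 had a median of -0.09 after the 5p duplex. Without control replicate 1 the SUFU values were 0.0359 and -0.0193, and without control replicate 2 they were -0.31 and -0.37. KIF7, the ciliary kinesin that organizes GLI and SUFU at the cilium tip, stood at 1.14 and 1.67 TPM in both controls, 1.09 and 1.49 TPM after the 5p duplex and 1.48 and 1.66 TPM after the 3p.1 duplex. The groups overlapped in each of the 3 comparisons (log2 -0.07, 0.10 and -0.17; limma adjusted p = 0.951, 0.976 and 0.863).

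GLI3, which yields the pathway's main repressor, stood at 6.99 and 7.60 TPM in both controls, 5.19 and 4.73 TPM after the 5p duplex and 5.57 and 5.04 TPM after the 3p.1 duplex. Both controls lay above all 4 duplex libraries, and the duplexes overlapped each other. The mean was 7.30 ± 0.431 TPM in control (SD, n = 2), 4.96 ± 0.325 TPM after the 5p duplex and 5.31 ± 0.375 TPM after the 3p.1 duplex, so the duplex means were 68.0% and 72.7% of control. The log2 fold change was -0.48 after the 5p duplex (SE 0.126, unadjusted p = 0.00818, limma adjusted p = 0.254) and -0.40 after the 3p.1 duplex (unadjusted p = 0.0185, adjusted p = 0.598). Both comparisons share their control libraries. Between the duplexes the log2 fold change was -0.08, with a 95% interval from -0.39 to 0.22 (adjusted p = 0.925), whereas VDAC1 differed by -1.91 between them (adjusted p = 0.00256).

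After the 5p duplex, 5.37% of all genes had a larger absolute log2 fold change than GLI3, and after the 3p.1 duplex 5.86% did. Of the 330 expressed genes with an 8mer to miR-324-5p, whose median log2 fold change after the 5p duplex was -0.13, 63 stood lower than GLI3. After the 3p.1 duplex the median of those 330 was -0.05 and 17 stood lower than GLI3. Between the duplexes it was -0.08, equal to that of GLI3 at this rounding, and 162 stood lower. For the 8805 expressed genes with no match in the longest 3′UTR, the medians in these 3 comparisons were -0.02, -0.03 and 0.0075. Of those genes 262, 385 and 2483 stood lower than GLI3. Leaving out any 1 library kept the GLI3 value between -0.53 and -0.42 after the 5p duplex and between -0.46 and -0.34 after the 3p.1 duplex.

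GLI2, the main activator among the GLI factors, stood at 6.36 and 7.59 TPM in both controls, 5.29 and 6.22 TPM after the 5p duplex and 5.65 and 6.87 TPM after the 3p.1 duplex. The 5p duplex lay below control by a margin of 6.22 against 6.36 TPM, and the 3p.1 duplex overlapped it. Its log2 fold changes were -0.24 (SE 0.155, adjusted p = 0.743) and -0.14 (adjusted p = 0.947). Leaving out 1 library moved the first between -0.35 (without control replicate 1) and -0.13 (without control replicate 2), and the second between -0.26 (without 3p.1 duplex replicate 2) and -0.0148 (without 3p.1 duplex replicate 1). The ratio of GLI3 to GLI2 was 1.10 and 1.00 in control, 0.981 and 0.761 after the 5p duplex and 0.986 and 0.734 after the 3p.1 duplex. Both controls lay above the duplex libraries in that ratio, and replicate 1 and replicate 2 of each duplex differed by more than the controls did.

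GLI1, the activator whose own transcription follows pathway activity, stood at 1.36 and 0.71 TPM in both controls, 0.93 and 0.91 TPM after the 5p duplex and 0.94 and 0.80 TPM after the 3p.1 duplex. The controls enclosed all 4 duplex libraries. With the expression minimum dropped, its log2 fold changes were -0.07 (SE 0.167, limma adjusted p = 0.955) and -0.10 (adjusted p = 0.968). The 3 GLI transcripts summed to between 11.41 and 15.9 TPM, and GLI1 made up 4.47% to 9.25% of the sum.

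Over the 8 tested genes, 7 had a negative log2 fold change after the 5p duplex, where 57.2% of all genes did, and 5 after the 3p.1 duplex, where 59% did. Between the duplexes 6 did, where 48.7% of all genes did. Their median was -0.16 after the 5p duplex against -0.03 over all genes, -0.07 after the 3p.1 duplex against -0.03, and -0.09 between the duplexes against 0.0055. Groups did not overlap in 3 of 8 after the 5p duplex, GLI2, GLI3 and BOC, all lower, against 22.1% of all genes lower and 12.7% higher without overlap. After the 3p.1 duplex these were GLI3 and BOC, 2 of 8, against 24.1% lower and 12.1% higher. Between the duplexes SMO, BOC and CDON were lower after the 5p duplex without overlap, 3 of 8, against 19.4% lower and 21% higher. GLI3 and BOC lay below both controls in all 4 duplex libraries, 2 of 8, as did 10.6% of all genes.

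**Figure D3:**
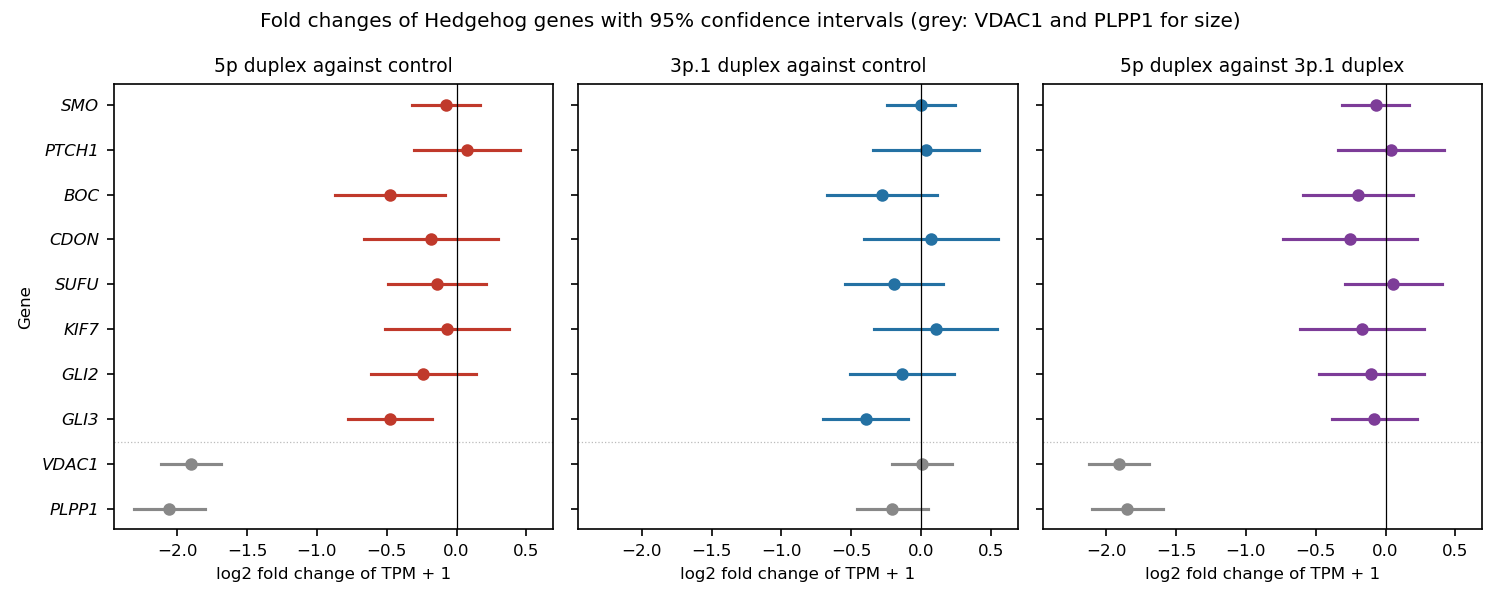
Log2 fold change of TPM + 1 (horizontal axis) with 95% confidence intervals from the limma model for the 8 Hedgehog genes tested, in the 3 comparisons, with VDAC1 and PLPP1 in grey for size. The Hedgehog genes lie between -0.48 and 0.10, while VDAC1 lies at -1.90 after the 5p duplex and at 0.0061 after the 3p.1 duplex.

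The wider pathway was read through 5 lists, some sharing genes, with 72 genes beyond the 10, of which 56 were tested. None of the 56 passed by limma with either duplex, against 0.463% and 0.0149% of all genes. At an unadjusted p under 0.05 there were 6 and 1, where 9.16% and 6.86% of all genes were. Their medians were -0.0066 and -0.05, against -0.03 and -0.03 over all genes. Ligand transcripts were low: SHH stood at 0.11 TPM or less, DHH at 0.06 TPM or less and IHH between 0.16 and 0.33 TPM. HHAT, the enzyme that palmitoylates the ligand, stood at 28.26 and 30.51 TPM in both controls, 37.67 and 32.60 TPM after the 5p duplex and 26.37 and 26.02 TPM after the 3p.1 duplex. Of the 56, HHAT had the lowest adjusted p between the duplexes (log2 0.41, limma adjusted p = 0.295). Of 9 genes for ligands and their release 3 were tested, with 0 called in either direction.

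Among other reception genes, HHIP, a decoy receptor and GLI target, stood between 0.59 and 1.04 TPM. Of 7 such genes 2 were tested, with 0 called in either direction. MGRN1, a ubiquitin ligase that acts on SMO, had a log2 value of -0.05 after the 5p duplex (limma adjusted p = 0.939) and -0.25 after the 3p.1 duplex (adjusted p = 0.770). Of 22 genes for cytoplasmic transduction and GLI turnover 21 were tested and 0 called in either direction, with medians of 0.0025 and -0.03. For ARRB1, a beta-arrestin, the log2 values were -0.32 and -0.21 with the 5p and 3p.1 duplex (limma adjusted p = 0.495 and 0.829). For PRKAR1A, a regulatory subunit of protein kinase A, they were -0.21 and -0.11 (adjusted p = 0.499 and 0.877). For BTRC, the ubiquitin ligase subunit that directs GLI processing, they were -0.08 and -0.25 (adjusted p = 0.8815 and 0.668).

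All 15 cilium transport genes were tested, with 0 called and medians of 0.03 after the 5p duplex and -0.03 after the 3p.1 duplex. TMEM107, a protein of the ciliary transition zone, stood at 18.60 and 19.63 TPM in both controls, 13.05 and 15.53 TPM after the 5p duplex and 17.87 and 17.66 TPM after the 3p.1 duplex. Its log2 fold change of -0.40 after the 5p duplex had the lowest adjusted p of the 56 in that comparison (limma adjusted p = 0.322). The intraflagellar transport genes IFT172 and IFT88 had log2 fold changes of 0.04 and 0.03 after the 5p duplex and 0.21 and -0.17 after the 3p.1 duplex.

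Of 23 reported GLI target genes, which include PTCH1 and GLI1, 16 were tested and 0 called in either direction, with medians of -0.02 and -0.0042 with the 5p and 3p.1 duplex. FOXF1, a mesenchymal forkhead factor, stood at 6.84 and 8.34 TPM in both controls, 4.46 and 6.18 TPM after the 5p duplex and 5.13 and 6.31 TPM after the 3p.1 duplex (log2 -0.45 and -0.35; limma adjusted p = 0.546 and 0.808). For CXCR4, a chemokine receptor, the log2 values were -0.42 and 0.20 (adjusted p = 0.538 and 0.918), and for CCND1, the G1 cyclin, -0.03 and 0.29 (adjusted p = 0.972 and 0.785). CCND1, at a mean of 417 TPM, stood far above GLI1 and PTCH1.

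**Figure D4:**
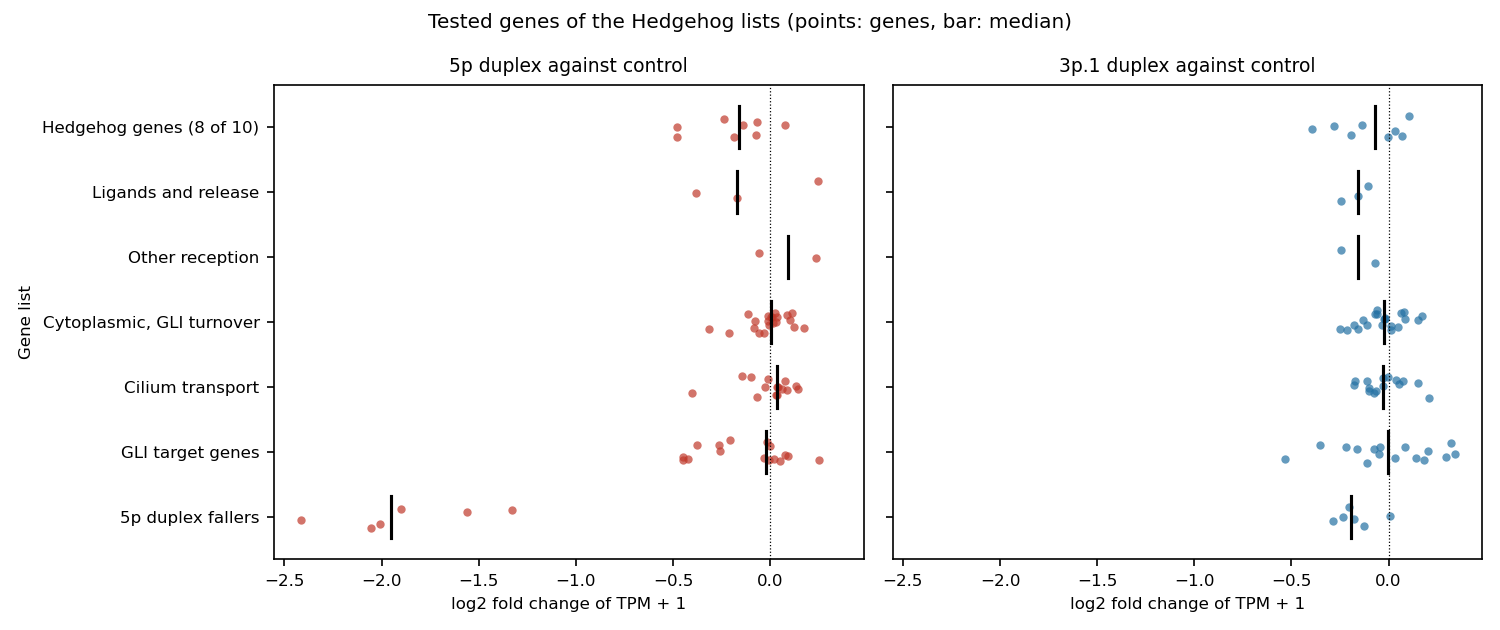
Log2 fold change of TPM + 1 (horizontal axis) of each tested gene in the Hedgehog lists, with the median as a bar, for either duplex against control. List medians lie between -0.17 and 0.09, while the bottom row, 6 genes picked from these libraries as lowered by the 5p duplex, has a median of -1.95 after the 5p duplex and -0.19 after the 3p.1 duplex.

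The genes whose log2 level followed SMO most closely over the 6 libraries, among 10623 with a mean of at least 5 TPM, were FAM103A1 (Pearson r = 0.996), CRNDE (0.991), CTAGE5 (0.987), TCEAL9 (0.984) and NFYB (0.982). The highest level of each was 1.18 to 1.38 times its lowest. Of the other Hedgehog genes BOC followed SMO most closely (r = 0.783), and KIF7 and PTCH1 had values of -0.35 and -0.32. These values describe the same 6 libraries, which share their groups, and no p is given.

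Gene positions are from GENCODE 29 on GRCh38. GLI3 spans 41960950 to 42237870 of chromosome 7 on the minus strand, SMO 129188872 to 129213545 of chromosome 7 on the plus strand, and GLI1 57460135 to 57472262 of chromosome 12 on the plus strand. SUFU spans 102503987 to 102633535 of chromosome 10 on the plus strand, CDON 125955796 to 126063335 of chromosome 11 on the minus strand and PTCH1 95442980 to 95517057 of chromosome 9 on the minus strand. GLI2 spans 120735623 to 120992653 of chromosome 2 on the plus strand, BOC 113211003 to 113287459 of chromosome 3 on the plus strand, GAS1 86944363 to 86947189 of chromosome 9 on the minus strand and KIF7 89608789 to 89655451 of chromosome 15 on the minus strand. Every Hedgehog gene but GAS1 overlaps at least 1 annotated gene on the other strand, among them ARHGAP9 at GLI1, TICRR at KIF7 and CFAP44 at BOC. The libraries were stranded per the labels, and whether the counting used the strand is not given in the sources used here, so these values are uncertain to that extent.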

How the data were processed

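Polyadenylated RNA of A172 cells was sequenced as stranded 100 bp pairs on a DNA nanoball instrument, per the labels' protocols. For each library the authors deposited TPM by gene symbol; RSEM and GRCh38 are named per the submitters' processing notes, and for the aligner and annotation nothing is given in the sources used here. Totals were equal in all libraries, so read depth is unknown. Unlisted symbols were taken as 0 and repeated symbols (21 to 23 per library) were summed. The 13400 genes averaging 1 TPM or more were fitted as log2(TPM + 1) with limma 3.58.1 in R 4.3.3, group means only, with a variance trend (3 residual and 3.38 prior degrees of freedom). The threshold was a Benjamini-Hochberg adjusted p of 0.05, two-sided. The script was tested on simulated data. Seed matches were sought in GENCODE 29 3′UTRs, and GLI motifs in RefSeq promoter windows (GRCh38.p14), where 8 of the 10 genes were matched. All 10 genes were named whatever their values. From each other Hedgehog list the 3 genes of largest absolute change with a mean of at least 5 TPM were named, plus the ligands, and for SMO the 5 most similar genes; HHIP was added after its values were seen, and some genes of these lists are not reported here. The members and lists were chosen with earlier results of these data known. Alternatives were pseudocounts of 0.1 and 0.5 TPM, no minimum or one of 5 TPM, only the 2 groups compared, no variance trend, a replicate block, quantile normalization and leaving out each library.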

Additional observations from a re-analysis of the deposited data

How the results depend on the processing

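None of the 8 tested Hedgehog genes passed in any comparison under any alternative run, and the lowest adjusted p was 0.0879 (GLI3, 5p duplex, limma with a replicate block). Replicate numbers share only a number in the labels. Deviations from the group means correlated at 0.265 to 0.383 between same-numbered libraries, and the block called 367, 30 and 278 genes in 5p duplex against control, 3p.1 duplex against control and 5p against 3p.1 duplex, where the fit without it called 62, 2 and 58. Those counts were 9, 0 and 5 with no expression minimum, where 1758, 1444 and 1802 genes had an unadjusted p under 0.05, and 11, 18 and 19 with only the 2 groups compared. Without a variance trend they were 33, 2 and 5. Leaving out 1 library gave 7 to 128, 5 to 94 and 7 to 26 genes. Without control replicate 1 the first and second counts were 128 and 94, and without control replicate 2 they were 19 and 6.

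The median of the 8 genes with the 5p duplex was -0.0747 with quantile normalization, where that of all genes was 0.0262. The median of the 8 ran from -0.27 (without control replicate 1) to -0.13 when 1 library was left out. With the 3p.1 duplex it was -0.17 at a minimum of 5 TPM, where 4 genes were tested. It was 0.0079 with quantile normalization, where that of all genes was 0.0187, and ran from -0.13 to -0.0055 when 1 library was left out. Of 324 values of single genes under alternatives 309 kept their direction, but many of these could not turn. Changing the expression minimum, the groups fitted, the variance trend or the replicate block leaves a gene's log2 fold change as it was. So does leaving out a library of the group not compared. With quantile normalization SMO turned to 0.0547 with the 3p.1 duplex. When 1 library was left out, the direction turned with the 5p duplex for SUFU (-0.31 to 0.0359), CDON (-0.37 to 0.0041) and KIF7 (-0.23 to 0.0922), with the 3p.1 duplex for SMO (-0.0592 to 0.0547), PTCH1 (-0.0360 to 0.11), CDON (-0.12 to 0.26) and KIF7 (-0.0560 to 0.26), and between the duplexes for GLI2 (-0.22 to 0.0192) and PTCH1 (-0.0335 to 0.11); the cause was not tested. Counting 8mers alone left 1 Hedgehog gene with a 3′UTR match to miR-324-5p, by construction, and using any annotated 3′UTR left 3. With 2 libraries a group, none of the 8 tested Hedgehog genes passed after adjustment over 13400 genes, although GLI3 and BOC had an unadjusted p under 0.05. Of the 8, PTCH1 and KIF7 stood near 1 TPM. GAS1 and GLI1 were under the expression minimum and not among those 13400.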

Other observations

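Several Hedgehog genes differed between replicate numbers in the same direction in all 3 groups. GLI2, CDON and KIF7 stood higher in replicate 2 than in replicate 1 in control, 5p duplex and 3p.1 duplex alike, as did 29% of the 13400 genes tested. CDON stood at 1.48, 1.14 and 1.41 times its replicate 1 level in those groups. BOC and SUFU stood lower in replicate 2 in all 3 groups, as did 22.4% of the genes tested, and so did GLI1, which was under the expression minimum. SMO, PTCH1, GLI3 and GAS1 showed no single direction.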
